A study of Rattus norvegicus with 12 samples.

Results

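The circular RNAs (circRNAs) described here are exonic loops that span 5 or more annotated exons, in livers of diabetic rats after a sham operation, after sleeve gastrectomy, or after relapse of diabetes following sleeve gastrectomy. They were all entries of the deposited table typed as exonic circRNA with an exon count of at least 5, and entries that described the same back-splice junction were summed. This gave 4738 junctions of 21068 in all (22.5%), from 2323 host genes, with 38808 of 284534 back-splice reads (13.6%). The other exonic junctions were 11820 loops of 2 to 4 exons and 925 loops of 1 exon.

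All rats were wild-type Wistar rats fed for 4 weeks on a diet in which fat supplied 60% of the calories, and injected once, after fasting for 16 h, with 35 mg/kg streptozotocin, which kills insulin-making beta cells. Those with a fasting glucose over 16.7 mmol/L on day 3 were randomised, matched for body weight, to sleeve gastrectomy, which removes most of the stomach, or to the sham operation. The groups held 5 sham libraries, 5 sleeve gastrectomy libraries taken at 3 months, and 2 relapse libraries, whose rats had both the operation and returned diabetes. No non-diabetic group was analysed here, so every library carries the diet and the toxin. When the sham and relapse livers were taken is not given in the sources used here. No label ties the libraries to different animals, so the p-values reflect only the variation among these 12 libraries, which may be technical.

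A circRNA forms when the spliceosome joins the 3′ end of an exon to the 5′ end of the same or an earlier exon of a transcript, a step called back-splicing. Introns on both sides of the loop that can pair with each other bring those ends together, and the exons between them are usually spliced to each other inside the loop. The closed ring has no free end, which makes it resistant to exonucleases such as RNase R, with which these libraries were enriched. A read across the junction shows which ends were joined. It does not show which inner exons the ring kept, so the exon numbers below are the authors' counts along an annotated transcript: all 4318 members with numbered exons listed them as a consecutive run. The letters of the junctions are not shown.

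The libraries held 18176 to 37229 back-splice reads, of which 2237 to 5078 fell in loops of 5 or more exons. Levels are given as reads-per-million (RPM) of all back-splice reads of a library, so that a count of 0 allows 80.6 RPM in the deepest and 165 RPM in the shallowest library (3 reads, counting error only). The liver label was checked on circRNA hosts: 10 of 12 hepatocyte markers had a circRNA (Apoa1 and Ttr were at 0), with a summed level of 21491 to 40735 RPM. Lists for 6 other liver and blood cell types and for pancreas and gut reached at most 786 RPM, and no cholangiocyte, pancreas or gut marker had a circRNA read. A circRNA is not the level of its gene, and in bulk tissue fewer cells of a type and less RNA per cell cannot be told apart.

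Most of the members were short and rare within their class. Loops of 5 exons made up 1835 junctions and 52.9% of the reads of the class, and loops of 6 exons a further 1123 junctions and 21.8%. There were 654 loops of 7 exons, 398 of 8, 254 of 9, 414 of 10 to 14 and 60 of 15 or more. The mean number of reads per junction, summed over the 12 libraries, was 11.2 for 5 exons, 7.52 for 6, 6.30 for 7, 6.72 for 8, 6.37 for 9, 3.14 for 10 to 14 and 2.02 for 15 or more. Loops of 1, 2, 3 and 4 exons had means of 24.7, 15.6, 15.2 and 13.5 reads. The median was 2 reads in every one of the groups of 5 or more exons, and 2, 3, 3 and 2 at 1 to 4 exons. The fall was thus in the mean, where a few loops weigh most (at most 1822 reads at 5 exons and 8 at 15 or more). The share of junctions read in a single library went from 61.9% at 5 exons to 96.7% at 15 or more. It was 54.6% over the loops of 2 to 4 exons and 59.2% over those of 1 exon.

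**Figure D1:**
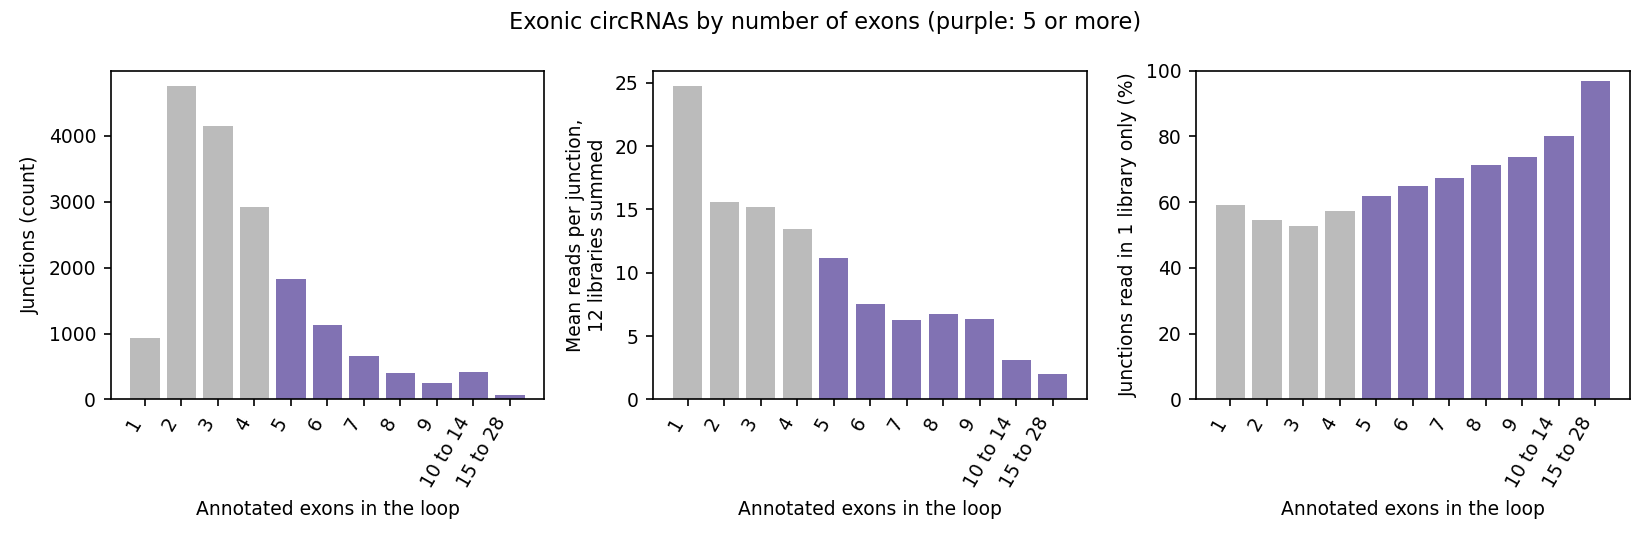
Bars show, by the number of annotated exons in the loop, the count of exonic junctions (left), the mean reads per junction summed over the 12 libraries (middle) and the percentage of junctions read in 1 library only (right), with loops of 5 or more exons in purple and the last pair of bars pooling 10 to 14 and 15 to 28 exons. Mean reads go from 11.2 at 5 exons to 2.02 at 15 or more, and the share read in 1 library from 61.9% to 96.7%.

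The same difference between classes held inside each library. A detected loop of 5 or more exons had 3.98 reads on average and a loop of 2 to 4 exons had 5.40, with a mean difference of -1.42 ± 0.282 reads (SD over 12 libraries). The long loops were lower in 12 of 12 libraries (exact two-sided sign-flip permutation test, p = 0.000488, the smallest it can give). Of the detected long loops 36.8% rested on 1 read, against 31.0% of the loops of 2 to 4 exons. This share was higher in 12 of 12 libraries (exact permutation p = 0.000488). Both permutation p stay at 0.000488 after Benjamini-Hochberg adjustment over the 2 tests. Loops of 1 exon, which were not in these tests, had 34.6% on 1 read and 9.58 reads on average. A large share of single reads was thus not particular to long loops.

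Few members carried most of the reads. Of the 4738 junctions, 3165 (66.8%) were read in 1 library, 1289 in 2 to 6, 221 in 7 to 11 and 63 in all 12, and those 63 held 37.7% of the reads. The 10 most read members held 20.5% and the 100 most read held 47.4%. A single read in the whole series was all that supported 1800 members. Only 297 (6.27%) reached 20 reads.

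The loops lay in long stretches of their genes. The median genomic span from end to end was 13770.5 bases, against 4072.5 for loops of 2 to 4 exons, and went from 10274 bases at 5 exons to 40909 at 15 or more. The introns that flank the loop, listed for 545 members, had a median length of 7167 bases upstream and 5692 downstream, and those of 1324 loops of 2 to 4 exons had 6288.5 and 5264.5. Exon 2, the first exon with a splice acceptor, opened 23.3% of the numbered members, 20.9% of the loops of 2 to 4 exons and 30.7% of those of 1 exon. Exon 1, which has no such acceptor, was listed as the first exon of 24 members (0.556%).

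Long loops often used ends that shorter loops used as well. Of all members, 41.8% shared the upstream end with a loop of 2 to 4 exons, 34.1% the downstream end, 58.5% at least 1 end and 17.4% both, each with the same or a different shorter loop. Among the 63 members read in all 12 libraries these shares were 65.1%, 55.6%, 84.1% and 36.5%. Whether the sharing of ends moves with the depth of the host was not tested. Among themselves the members used 3955 upstream ends, and 84.4% of these served 1 member. The most shared upstream end served 6 loops of Ttc7a, a host picked after the values were seen.

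The most abundant long loops came from genes of several unrelated functions, and their levels are given here in the order of the mean over all 12 libraries. First was circRNA2050 of Cyp2c7, a cytochrome P450 of the hepatocyte, which joins exons 2 to 6 at chr1:148084421-148107916 on the minus strand (build Rnor_6.0). Its level was 7116, 8473, 5205, 7572 and 5858 RPM in sham libraries 1 to 5, 9357, 5847, 6095, 6848 and 7362 RPM in sleeve gastrectomy libraries 1 to 5, and 4655 and 3653 RPM in relapse libraries 1 and 2. Both relapse libraries lay below all 10 others. In both of them the loop of Pus10, next in the order, was higher (5684 and 4190 RPM), and in relapse library 2 so were those of Psd3 (4942 RPM) and AABR07068272 (3680 RPM). The Pus10 loop, of a pseudouridine synthase gene, joins exons 7 to 11 at chr14:108446850-108456923 on the plus strand, with 2929 to 5907 RPM. It was written as 2 entries: all 165 reads of sham library 1 stood in one and the reads of the other 11 libraries in the other.

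Psd3, which encodes an exchange factor for an ARF GTPase, followed with circRNA598 of exons 6 to 11 at 2908 to 5651 RPM (chr16:23555920-23600154, plus strand). Then came circRNA2286 of AABR07068272, described in the deposited table as GRB10 interacting GYF protein 2, at 2226 to 5454 RPM, highest in sleeve gastrectomy library 2. circRNA534 joins exons 3 to 10 of Upf2, a factor of nonsense-mediated mRNA decay, at chr17:76245628-76265943 on the minus strand, with 1596 to 3811 RPM. With 8 exons it was the longest of the first 11.

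The next loops were lower and overlapped in level. Those of Rreb1 (a zinc finger transcription factor), Mkln1 (muskelin, a part of a ubiquitin ligase), Sppl3 (an intramembrane protease), Rab6a (a Golgi GTPase), Pcca (a subunit of propionyl-CoA carboxylase) and Mindy3 (a deubiquitinase) had means of 1589 ± 309, 1487 ± 434, 1481 ± 559, 1434 ± 245, 1203 ± 334 and 1113 ± 486 RPM (SD, n = 12 libraries). Over the same libraries Cyp2c7 had 6503 ± 1613 RPM and Pus10 4781 ± 856 RPM. The Rab6a loop was the steadiest, at 1.07 times the variance that read counting alone gives, against 10.2 times for Cyp2c7 and 3.48 times for Pus10. The 12th was the loop of exons 2 to 10 of Slc27a2, a very-long-chain acyl-CoA synthetase, which had 17 to 33 reads in the sham libraries, 21 and 34 in relapse, and 31, 0, 2, 21 and 25 in sleeve gastrectomy libraries 1 to 5.

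**Figure D2:**
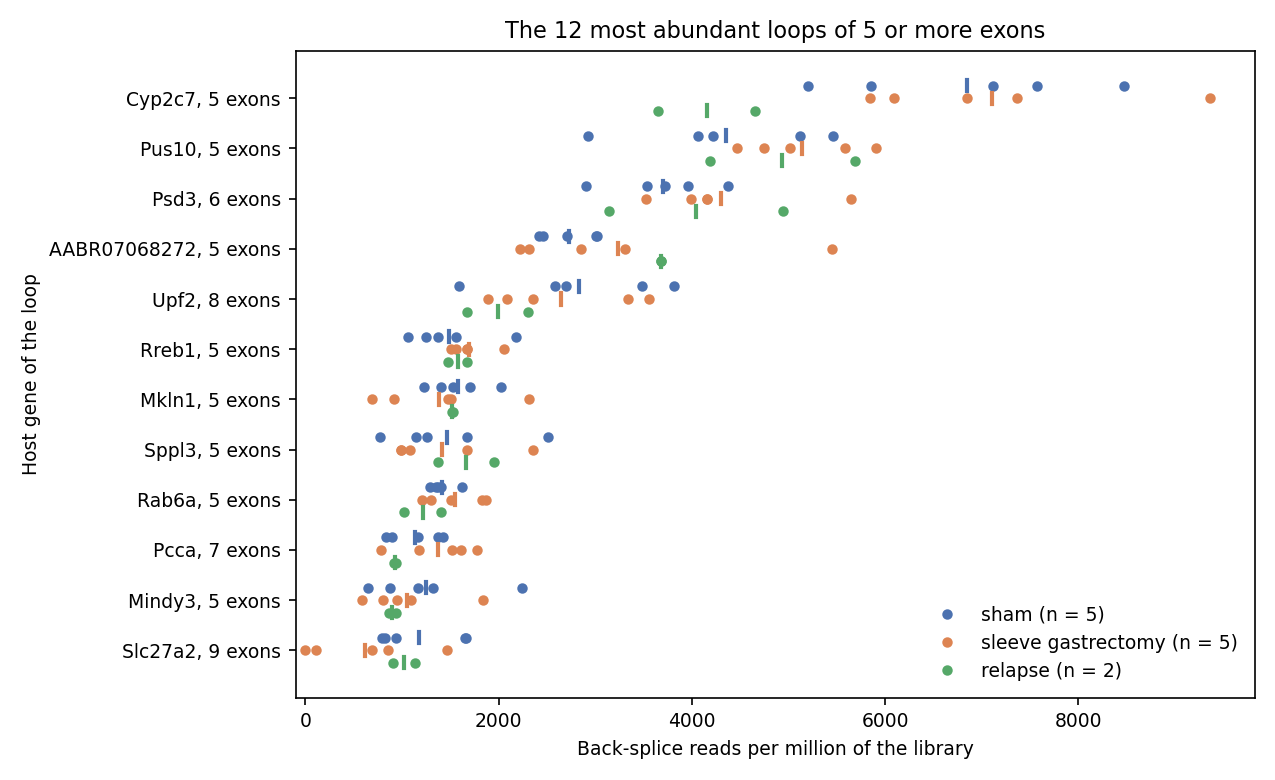
Each point is the level of a loop in 1 library, in back-splice reads-per-million, for the 12 most abundant loops of 5 or more exons. Colours mark sham (n = 5), sleeve gastrectomy (n = 5) and relapse (n = 2), and short bars mark group means. The groups overlap for most loops, and the relapse points of Cyp2c7 (4655 and 3653 RPM) lie below the 10 others.

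Hosts differed in whether their circular output was long or short. Long loops took 98.6% of the circRNA reads of Pus10, 97.8% of Ankrd27 (an endosomal Rab regulator), 92.8% of Upf2, 92.3% of Mkln1 and 76.3% of Psd3. They took 34.7% in Cyp2c7, whose most read loop joins exons 2 to 5 and stops 1 exon earlier, and 26.6% in Tf, the gene of plasma transferrin. By library the share was 97.0 to 100% for Pus10 and 29.0 to 42.2% for Cyp2c7. In Upf2 all 5 long loops opened at exon 3 and closed at exons 9, 10, 11, 12 and 13, with 71, 732, 9, 6 and 1 reads. In Agmo, an enzyme that cleaves ether lipids, the 8 long loops opened at exon 4, 5, 6 or 7 where exon numbers are given, and nearly all their reads closed at exon 10 or 12.

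**Figure D3:**
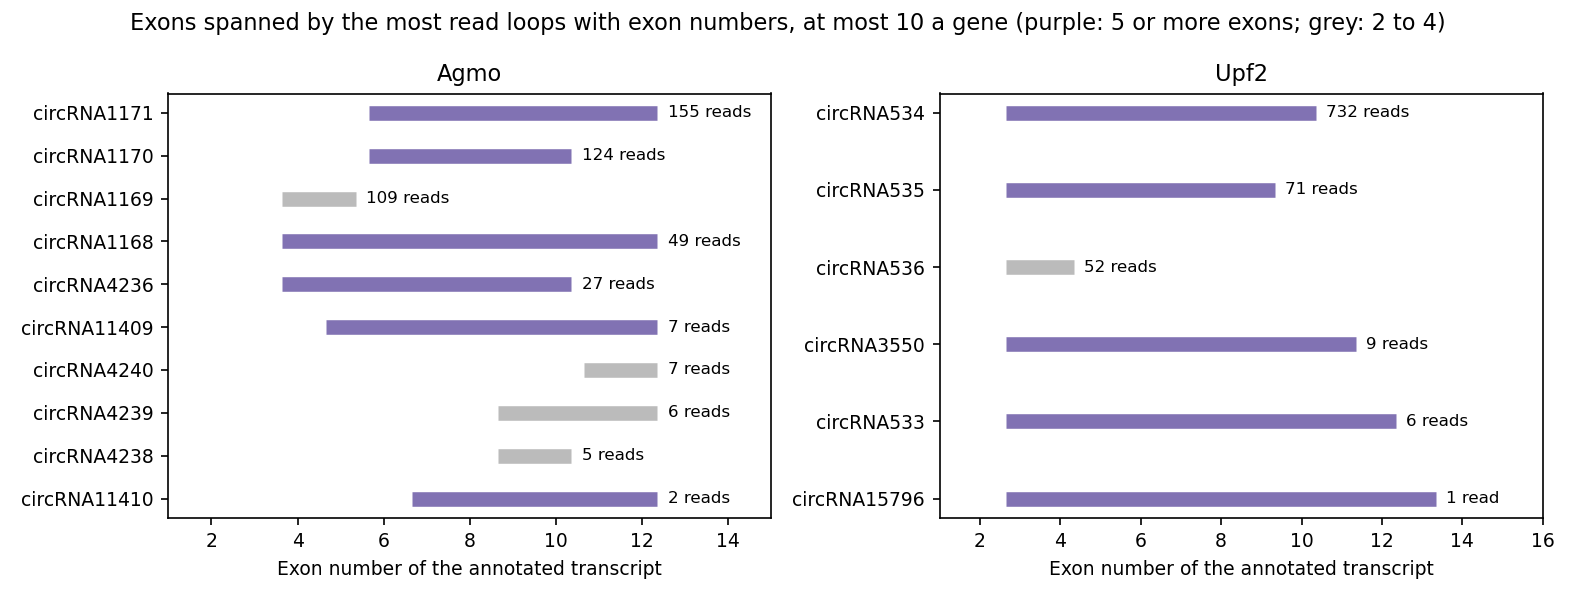
Horizontal bars show the exons between the first and last exon of each loop along the annotated transcript of Agmo (left) and Upf2 (right), with the total reads over the 12 libraries beside each bar, for at most 10 loops a gene. Loops of 5 or more exons are purple and loops of 2 to 4 exons grey. The loops of Upf2 share exon 3 as their first exon.

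Other genes made many different long loops, each with few reads. Tf had 20 members with 235 reads, LOC297568 (described as alpha-1-inhibitor III, a plasma protease inhibitor) 17 with 71, Dpyd, which breaks down pyrimidines, 15 with 87, Sec24a, a coat protein of vesicles leaving the endoplasmic reticulum, 13 with 38, and Pik3c2g, a lipid kinase of the liver, 13 with 172. Of these members 14 of 20, 13 of 17, 8 of 15, 10 of 13 and 6 of 13 were read in 1 library. Of the 20 loops of Tf, 15 lay on the minus strand with 220 reads and 5 on the plus strand with 15 reads. LOC297568 belongs to a family of similar genes, which makes the assignment of its reads uncertain, and the same holds for the Cyp2c, Cyp2a and Cyp3a loops. Its circRNA19036 had the highest exon count of all members, 28, with 4 reads. Ltn1, a ubiquitin ligase of stalled ribosomes, had a loop of 24 exons with 7 reads.

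Whether long loops as a class changed was asked with the share of all back-splice reads that they took. The share was 13.7, 14.4, 14.8, 13.4 and 14.4% in sham libraries 1 to 5, 14.3, 13.9, 12.1, 12.8 and 14.0% after sleeve gastrectomy, and 12.2 and 13.6% in relapse. Means were 14.1 ± 0.570% (SD, n = 5), 13.4 ± 0.941% (SD, n = 5) and 12.9 ± 1.02% (SD, n = 2), and the groups overlapped. The exact two-sided permutation p was 0.214 between sleeve gastrectomy and sham, 0.0952 between relapse and sham, and 0.524 between relapse and sleeve gastrectomy. The smallest p these designs allow is 0.00794 with 5 against 5 and 0.0476 with 2 against 5.

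Within the class, loops of 10 or more exons took 3.84 ± 0.515% of the reads in the 5 sham libraries, 3.53 ± 0.330% in the 5 sleeve gastrectomy libraries and 3.66 ± 0.474% in the 2 relapse libraries (SD). The number of different long loops expected among 2237 long-loop reads, the depth of the smallest library, was 711 ± 47.5, 688 ± 73.6 and 651 ± 148. All 9 comparisons of these 3 measures had an adjusted p of 0.714 (exact permutation tests, Benjamini-Hochberg). With 8 exons in place of 10, the share was 15.6 ± 0.790% for sham, 14.4 ± 0.694% for sleeve gastrectomy and 13.6 ± 0.963% for relapse libraries, with an exact permutation p of 0.0397 for sleeve gastrectomy against sham and 0.0476 for relapse against sham. These p are not adjusted, and the sham and sleeve gastrectomy libraries overlapped (14.7 to 16.8% and 13.4 to 15.2%).

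**Figure D4:**
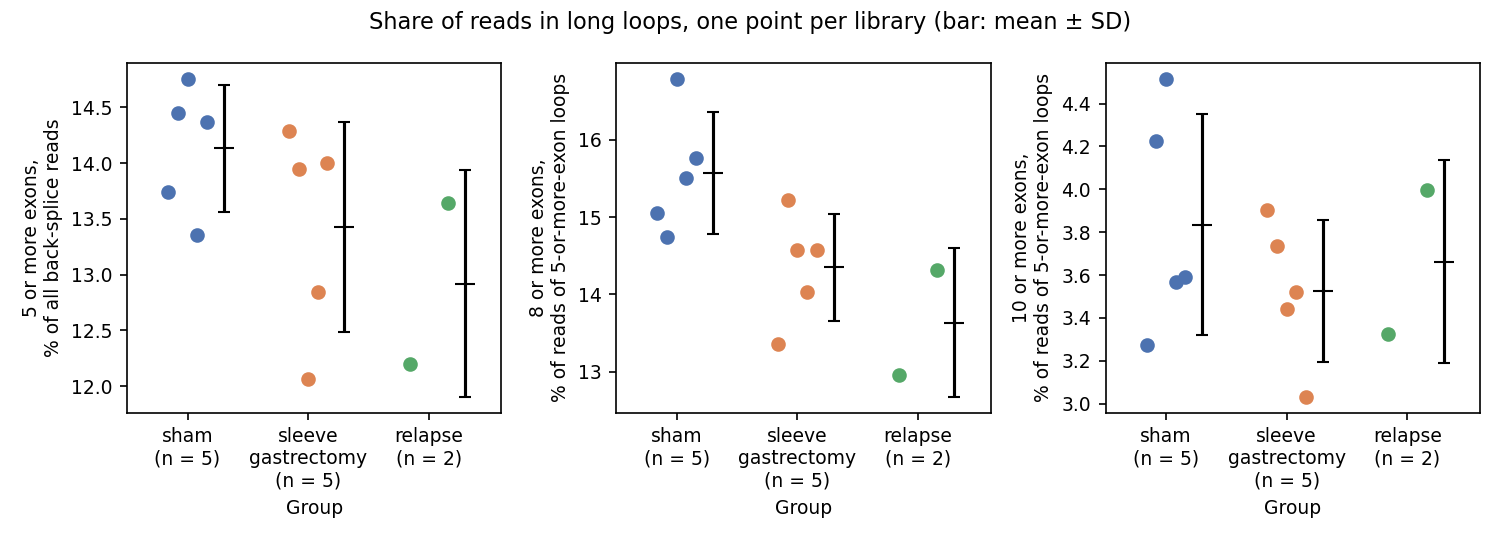
Points are libraries, and the bar beside each group is its mean ± SD, for the share of all back-splice reads in loops of 5 or more exons (left), and the share of the reads of those loops in loops of 8 or more (middle) and 10 or more exons (right). The vertical axes do not start at 0. Group means of the left plot are 14.1, 13.4 and 12.9%, with overlapping points.

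No single long loop passed the test between any groups. Junctions with enough reads for the edgeR quasi-likelihood test numbered 1519, of which 212 were members (4.47% of the 4738, with 58.6% of their reads and at least 16 reads each). At an adjusted p under 0.05 there were 0 members and 0% of all tested junctions in each of the 3 comparisons, and DESeq2 and limma-voom also called 0. At an unadjusted p under 0.05 edgeR gave 5 members between sleeve gastrectomy and sham, where the background over all tested junctions was 3.88%, 11 between relapse and sleeve gastrectomy (background 4.81%) and 12 between relapse and sham (background 5.79%). These are 2.36%, 5.19% and 5.66% of the tested members, shares near or below the background.

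The median log2 fold change of the tested members was -0.10, -0.12 and -0.23 in the same order, beside -0.01, -0.07 and -0.04 over all tested junctions. Lower values were estimated for 125, 117 and 127 of the 212 members, or 59.0%, 55.2% and 59.9%, beside 50.4%, 52.9% and 52.3% of all tested junctions. The median standard error of a member's log2 fold change was 0.88, 1.14 and 1.16, so a change of 2-fold (1 on the log2 scale) in a typical tested member was within about 1 standard error.

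Summing the long loops of each host put the reads of its loops into 1 test. The median standard error of a long-loop sum was 0.86, 1.17 and 1.17 in the same order. For single members it was 0.88, 1.14 and 1.16, so a typical sum was estimated about as precisely as a typical member. Of 1551 tested sums of a host and an exon class, 237 were long-loop sums, and edgeR called 0 of these in any comparison (edgeR background 0.0645% for sleeve gastrectomy against sham, 0% for the other two). DESeq2 and limma-voom also called 0 long-loop sums. The hosts with an unadjusted p under 0.05 numbered 6 (background 4.19%), 17 (background 4.71%) and 19 (background 5.61%) in the same order of comparisons. These are 2.53%, 7.17% and 8.02% of the tested long-loop sums, below the background in the first comparison and above it in the others, which share the 2 relapse libraries; the difference from the background was not tested. In relapse against sham 16 of the 19 were lower, with a background of 3.55% in that direction, and 3 were higher, with a background of 2.06%. The smallest adjusted p was 0.805, 0.374 and 0.204.

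The Cyp2c7 loop was among the members with the smallest p in relapse. Its mean was 6845 ± 1315 RPM over the 5 sham libraries, 7102 ± 1397 over the 5 sleeve gastrectomy libraries and 4154 ± 709 over the 2 relapse libraries (SD). The log2 fold change was -0.79 (SE 0.28) against sleeve gastrectomy and -0.72 (SE 0.28) against sham, with edgeR adjusted p of 0.747 and 0.706. The 4-exon loop of Cyp2c7, circRNA2052, which shares its upstream end, had 8996 ± 1058, 9079 ± 1548 and 5204 ± 142 RPM and log2 fold changes of -0.81 (SE 0.25) and -0.77 (SE 0.25), with adjusted p of 0.747 and 0.700. The long and the short loop were thus lower by a similar amount in both relapse libraries, and neither passed the test. The summed hepatocyte marker circRNAs were 21491 to 22697 RPM in relapse, 27951 to 40438 in sham and 25010 to 40735 after sleeve gastrectomy, and without Cyp2c7 they were 10069 to 10422, 10179 to 16835 and 10957 to 15453. The part of other hepatocyte circRNAs in the Cyp2c7 difference was not tested.

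Hadhb, a thiolase of mitochondrial fatty acid oxidation, gave the member with the smallest p in relapse against sham, circRNA2493 of 5 exons (chr6:27573047-27582987, minus strand). Its reads were 29, 23, 11, 21 and 22 in the sham libraries, 35, 10, 17, 14 and 21 after sleeve gastrectomy, and 6 and 0 in relapse. Both relapse libraries were below the lowest of the others in RPM (325 and 0, against 459). The log2 fold change was -2.88 (SE 0.78) against sham and -2.68 (SE 0.77) against sleeve gastrectomy, with edgeR adjusted p of 0.579 and 0.747. The size and the call depended on which relapse library was kept. Without relapse library 1 the comparison rests on a single relapse library with 0 reads, so its p-values are not given. Without relapse library 2 the log2 fold change was -1.75 and -1.57.

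The shorter loop of Hadhb, circRNA2494 of 4 exons, shares the upstream end of circRNA2493 and did not have this pattern. Its mean was 663 ± 223 RPM for sham, 354 ± 157 for sleeve gastrectomy and 661 ± 15.5 for relapse (SD, 5, 5 and 2 libraries), with log2 fold changes of 0.00 (SE 0.55) and 0.88 (SE 0.55) for relapse against sham and against sleeve gastrectomy. The difference between the loops was not tested.

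Agmo was the host whose summed long loops had the smallest p between sleeve gastrectomy and sham in the edgeR fit. The sums were 34, 32, 46, 25 and 31 reads in the sham libraries, 23, 11, 13, 27 and 17 after sleeve gastrectomy, and 20 and 95 in the relapse libraries. In RPM the means were 1595 ± 507, 759 ± 227 and 1817 ± 1039 (SD, n = 5, 5 and 2), and every sleeve gastrectomy library was below every sham library. The log2 fold change was -1.05 (SE 0.31) for sleeve gastrectomy against sham and 1.31 (SE 0.39) for relapse against sleeve gastrectomy, with edgeR adjusted p of 0.805 and 0.521. These comparisons share the sleeve gastrectomy libraries, and relapse library 2 held most of the relapse reads. The second value was 0.41 without relapse library 2 and 1.83 without relapse library 1.

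Single loops of Agmo were less even. circRNA1171, of exons 6 to 12 (chr6:57016030-57048318, plus strand), had 733 ± 255 RPM in sham, 336 ± 167 after sleeve gastrectomy and 579 ± 359 in the relapse libraries. circRNA1168, of exons 4 to 12, had 3, 2, 5, 4 and 6 reads in the sham libraries, 0, 0, 2, 3 and 0 after sleeve gastrectomy and 9 and 15 in the relapse libraries, so the relapse libraries were above all others. Its log2 fold change for relapse against sleeve gastrectomy was 3.25 (SE 1.16, edgeR adjusted p = 0.747). The 2-exon loop of Agmo, circRNA1169, had 435 ± 223, 347 ± 125 and 364 ± 131 RPM and overlapped between all groups.

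**Figure D5:**
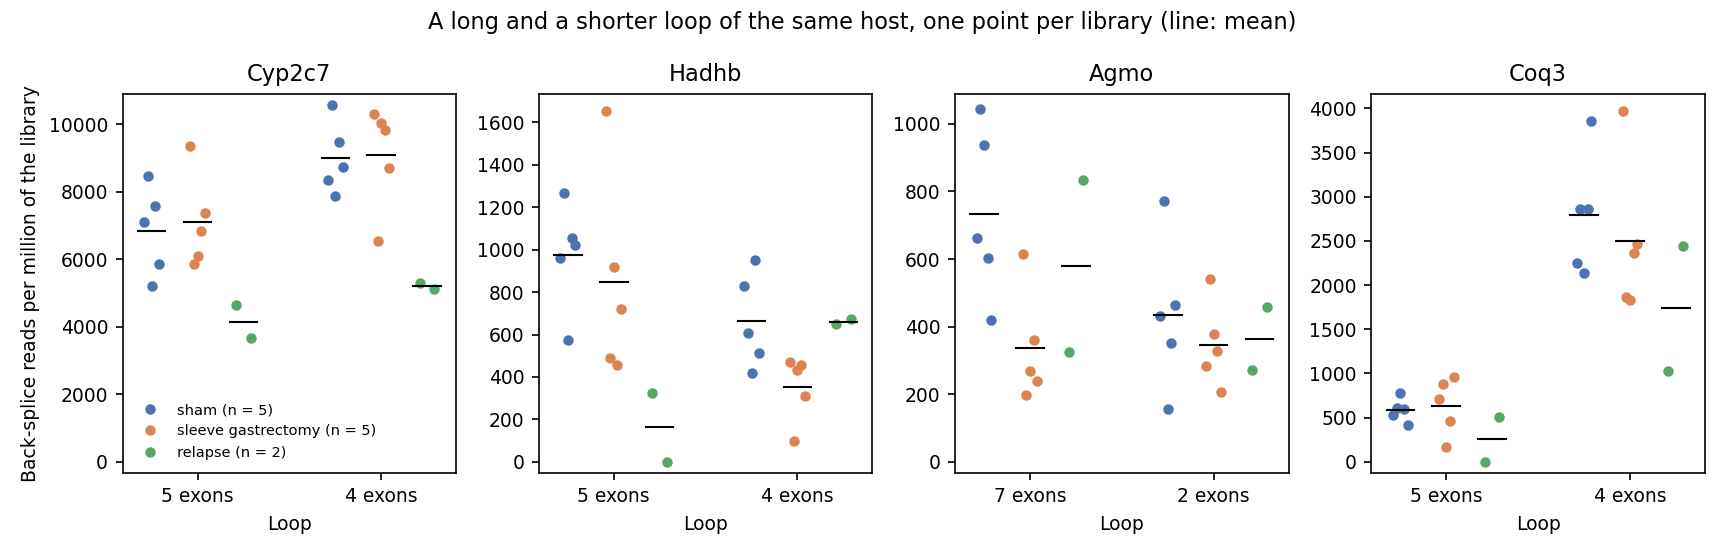
Points are libraries and lines are group means, in back-splice reads-per-million, for a long loop (left in each plot) and the most read loop of 2 to 4 exons (right) of Cyp2c7, Hadhb, Agmo and Coq3. Both loops of Cyp2c7 are lower in the 2 relapse libraries, while for Hadhb the long loop is lower there (mean 162 RPM) and the 4-exon loop is at 661 RPM. Coq3 was added after its values were seen.

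Of the members and host sums named for a small p, several had 0 reads in a whole group. Such zeros are common in the class, where 3165 of 4738 members were read in 1 library only. The share of tested members or of all tested junctions at 0 in a whole group was not counted. circRNA6143 of Tatdn1 had 5, 11, 6, 3 and 0 reads in sham, 0 in all 5 sleeve gastrectomy libraries, and 0 and 6 in relapse, with an edgeR adjusted p of 0.926 for sleeve gastrectomy against sham. circRNA5825 of Lmbr1 was at 0 after sleeve gastrectomy, with 0, 0, 5, 5 and 3 reads in the sham libraries and 0 and 3 in relapse. The summed long loops of Dysf, a membrane repair protein, had 1, 0, 6, 3 and 0 reads in the sham libraries, 0 after sleeve gastrectomy and 5 in each relapse library. circRNA7977 of Cyp3a9, a steroid- and drug-metabolising P450, had 11, 5, 13, 5 and 0 reads in the sham libraries, 8, 4, 4, 0 and 15 after sleeve gastrectomy and 0 in both relapse libraries (edgeR adjusted p = 0.700 against sham and 0.747 against sleeve gastrectomy). circRNA7969 of Prelid2 and circRNA7965 of a gene described as alkaline ceramidase 3 were also at 0 in relapse. The Prelid2 loop had 8, 11, 0, 0 and 0 reads in the sham libraries and 7, 10, 5, 3 and 10 after sleeve gastrectomy. The other loop had 4, 2, 9, 4 and 5 reads in the sham libraries and 5, 7, 0, 3 and 6 after sleeve gastrectomy.

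The loops circRNA6143, circRNA5825, circRNA7977, circRNA7969, circRNA7965 and circRNA2493 come from entries that name the host by an Ensembl identifier, and in such entries values of 1 read are rare: 2.52% of the member values above 0, against 43.1% in entries that name the host by symbol. A 0 there may therefore be a low count that was not listed, and no bound on a fold is given for them. Of the 12 members named for a small p, 6 had identifier entries alone, as did 51 of the 212 tested members (24.1%).

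Other loops named for a small p were higher. Higher values were estimated for 87, 95 and 85 of the 212 tested members, with the comparisons in the order used above. circRNA1931 of Ppa2, the mitochondrial inorganic pyrophosphatase, had 654 ± 120 RPM in sham, 1078 ± 321 after sleeve gastrectomy and 985 ± 139 in the relapse libraries, with a log2 fold change of 0.73 (SE 0.33) for sleeve gastrectomy against sham. circRNA1121 of Crim1, a transmembrane protein that binds bone morphogenetic proteins, had 85.7 ± 82.9 and 360 ± 255 RPM in these groups (log2 fold change 1.96, SE 0.84). circRNA1854 of Slc33a1, the acetyl-CoA transporter of the endoplasmic reticulum, had 0, 0, 2, 0 and 3 reads in the sham libraries, 7, 1, 2, 8 and 4 after sleeve gastrectomy and 9 and 15 in the relapse libraries. Its log2 fold change for relapse against sham was 3.11 (SE 1.18), and the edgeR adjusted p of these 3 results were 0.996, 0.996 and 0.706.

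The members with the most exons among those with 20 or more reads were circRNA6153 of Tns1 (12 exons, a focal adhesion protein), circRNA5200 of Cyp2a3 (11 exons, a P450), circRNA4709 of Slco1b2 (11 exons, a hepatocyte uptake transporter of bile acids) and a loop of Reps2 (11 exons, an endocytic adaptor). They had 35, 28, 24 and 26 reads in all, were read in 9, 8, 9 and 6 libraries, and their groups overlapped between sham and sleeve gastrectomy.

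Gene lists of liver functions gave no call either. In each of 11 lists, 0 long-loop host sums passed the edgeR threshold in any comparison. Drug and steroid metabolism had 22 of 64 genes with a long loop and 7 tested, with medians of -0.09, -0.74 and -1.25 (log2 fold change, with the comparisons in the order used above), 5 of 7 lower in each. Of complement, clotting and plasma proteins 28 of 59 had a long loop and 6 were tested, with medians of -0.29, -0.45 and -0.58, and Tf went from 1043 ± 493 RPM in sham to 758 ± 508 and 431 ± 303, overlapping throughout. The medians over all tested sums were -0.02, -0.04 and -0.05. Over the 237 tested long-loop sums, the kind in these lists, they were -0.10, -0.11 and -0.23, with 57.4%, 57.0% and 59.5% lower.

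Of fatty acid oxidation and ketogenesis 19 of 45 genes had a long loop and the 5 tested had medians of -0.09, -0.04 and -0.19, and of lipid synthesis and storage 15 of 43 had one and the 4 tested had 0.01, 0.98 and 0.69. Urea cycle and amino acids (25 of 48 genes, 7 tested) had medians of 0.02, -0.13 and 0.17, with Pcca at 1446 ± 368, 1574 ± 458 and 1051 ± 185 RPM. Endoplasmic reticulum folding and stress (19 of 39, 4 tested) had -0.27, -0.30 and -0.67, among them Canx, the chaperone calnexin, at 928 ± 128, 740 ± 261 and 674 ± 187 RPM. Cholesterol and bile acids (16 of 42), glucose production, glycogen and glycolysis (9 of 40), insulin and growth factor signalling (15 of 39), and ubiquitin ligases and large scaffold proteins (39 of 45) had 2 tested hosts each.

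Nr1h4, the bile acid receptor FXR, had 231 ± 89.1, 190 ± 104 and 243 ± 39.4 RPM in its 2 long loops. Phkb, a subunit of phosphorylase kinase, had 533 ± 353, 520 ± 150 and 269 ± 304 RPM. Pik3c2g had 792 ± 332 in sham and 417 ± 178 after sleeve gastrectomy, with overlapping libraries and a log2 fold change of -0.91 (SE 0.42, edgeR adjusted p = 0.995). Of 53 genes known as circRNA hosts in several species, 27 had a long loop and 7 were tested, with medians of 0.26, -0.05 and 0.17, led by Psd3 at 3844 ± 494, 4517 ± 943 and 4216 ± 1522 RPM.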

How the data were processed

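The deposited table gave whole-number counts of back-splice reads and a signal called SRPBM (the count times a constant in each library, not used) for 12 liver libraries, and the exon number of each loop. The submitters' processing notes name cutadapt 1.9, FastQC, TopHat2 2.0.10 and build Rnor_6.0; the back-splice caller is not given in the sources used here. The 4935 entries of 5 or more exons were summed to 4738 junctions (200 had 2 entries). Starts are counted from 1, after 668 identifier entries of the table whose start is counted from 0 were moved by 1 base. Hosts of identifier entries were named through symbol entries of the same gene record, transcript or junction, and failing these through RefSeq gene symbols (43 members kept an identifier).

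Counts of all junctions, and sums per host and exon class, were fitted in edgeR 4.0.16 (R 4.3.3): TMM, filterByExpr with a minimum count of 5 and total of 15, 1 mean per group over all 12 libraries, robust quasi-likelihood F-test, Benjamini-Hochberg adjustment over all tested features, threshold 0.05. DESeq2 1.42.0 and limma-voom (limma 3.58.1) were alternatives. The edgeR fit was tested on simulated counts for sleeve gastrectomy against sham alone. In these, 200 of the 1519 tested junctions of all classes had 1 group raised above the observed mean, which adds reads. The fit recovered 101 of 200 changes of 4-fold and 145 of 200 of 8-fold, with 0 and 4 calls of unchanged junctions. Recovery among the members alone, or at their own number of reads, was not tested. The relapse comparisons, DESeq2 and limma-voom were not tested in this way. Library totals were 18176 to 37229 reads. Named members were the 12 most abundant, the 6 of smallest p in each comparison, the 4 with most exons among those with 20 or more reads, the hosts with most junctions or reads, up to 2 hosts of each list, and the 3 host sums of smallest p. Members and lists were chosen with earlier results of these data known. 1 host that the rule names is not reported here.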

Additional observations from a re-analysis of the deposited data

Results flagged for a closer look

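In groups of 5 libraries, 1 library stood far from the other 4 in 7 of 128 groups examined (gap over range above 0.71, Dixon's value), and chance gives about 1 in 20. All 7 were high. circRNA1121 of Crim1 had 803 RPM in sleeve gastrectomy library 1, against 162 to 308 RPM in the other 4. circRNA5200 of Cyp2a3 had 165 RPM in sham library 1, against 93.0 to 110 RPM. The summed long loops of Rere had 2015 RPM in sleeve gastrectomy library 2 (others 1114 to 1267), those of LOC297568 had 1209 RPM in sham library 5 (others 0 to 165), and those of Acaca had 548 RPM in sleeve gastrectomy library 5 (others 0 to 98.3). The long loops of Slco1b2 had 416 RPM in sham library 3 (others 139 to 201) and those of Sec24a had 331 RPM in sham library 1 (others 0 to 93.0).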

How the results depend on the processing

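Over the class and count results, 214 values under an alternative setting were the same, 7 reversed and 4 newly passed an unadjusted 0.05. For the class measures, the same means that direction and call were kept. For the counts of calls it means only that the count stayed at 0, with no direction compared. With 1 relapse library left out, 7 counts of calls moved. In some settings the group permutation tests cannot give p under 0.05: a relapse comparison with 1 library left out, and the paired differences of the replicate block. There the call could not change, so the values of the 214 that come from them do not bear on it. With 8 exons in place of 10, the share of the longest loops differed by -1.22 percentage points for sleeve gastrectomy against sham (exact permutation p = 0.0397), by -0.716 for relapse against sleeve gastrectomy (reversed from 0.136) and by -1.93 for relapse against sham (exact permutation p = 0.0476). The long-loop share in relapse against sham differed by -1.10 points with symbol entries alone and by -1.44 as a percent of exonic reads (exact permutation p = 0.0476 for both, against 0.0952).

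Leaving out 1 library at a time, the long-loop share differed by -0.918 to -0.363, -1.23 to 0.210 and -1.93 to -0.494 points (sleeve gastrectomy against sham, relapse against sleeve gastrectomy, relapse against sham), the share of 10 or more exons by -0.449 to -0.139, -0.199 to 0.471 and -0.508 to 0.162, and the expected number of loops by -45.6 to 2.54, -142 to 67.1 and -164 to 44.4. The positive ends of the relapse ranges came without relapse library 1 and 2.54 without sleeve gastrectomy library 2; -0.199 came without relapse library 2. Fits without 1 relapse library leave a relapse group of 1 library, so their p-values and calls are not listed here. The results depended on which library was kept for circRNA2493 of Hadhb, with 6 and 0 reads in relapse libraries 1 and 2. The same held for circRNA4360 of Coq3 (0 and 19 reads) and the summed long loops of Agmo (20 and 95 reads). A relapse group of 1 library was assumed to vary like the other groups. With the replicate block the long-loop share of sleeve gastrectomy against sham had p = 0.3125 (exact permutation of paired differences). The edgeR fit with the block called 0 of the 212 tested members, beside 1, 2 and 1 of all 1519 tested junctions in the same order of comparisons. Deviations from the group mean of same-numbered sham and sleeve gastrectomy libraries had r from -0.0961 to 0.0237 over 5 pairs. The other pairs had r from -0.0590 to 0.0817. Counting noise in junctions with few reads draws r towards 0, so these values cannot show whether the numbers pair the libraries. The cause of these changes was not tested beyond the libraries left out. At this depth 4526 members had too few reads to be tested.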
